A study of Mus musculus with 39 samples.

Results

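Newborn mouse bone marrow was compared before and after a sort for monocytic cells. The comparison covers 6 of the 39 libraries of the series, 3 from cells labelled M-myeloid-derived suppressor cells (the M sort) and 3 from the unsorted marrow (all marrow cells). All 6 came from bone marrow of C57BL/6 mice labelled as newborn at P7, with no transgene, deletion or treatment named for either group. Both groups were chosen by their sample titles, and every gene with a TPM (a transcript level scaled for gene length and library total) of at least 1 in at least 3 of these 6 libraries was tested, which gave 13779 of the 53465 genes in the table. Another marrow group of the same strain and age, labelled G-myeloid-derived suppressor cells (the G sort, 3 libraries), is used as a reference point. The sources used here name neither the surface markers of the sorts nor whether the 3 libraries of a group came from separate animals or pools. The p values therefore measure the spread between these libraries, part of which may be technical.

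Myeloid-derived suppressor cells are immature myeloid cells that can restrain T cell responses, and are usually divided into a monocytic and a granulocytic kind. Newborn marrow makes red cells, neutrophils, monocytes, B cells and platelets side by side, so unsorted marrow RNA is a mixture of all of these with some stromal RNA. Classical monocytes leave the marrow through the chemokine receptor CCR2, carry the surface protein Ly6C and express the transcription factors PU.1, IRF8 and KLF4. In such bulk RNA, fewer cells of a type and less RNA per cell cannot be told apart.

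TPM values sum to the same total in every library, so they keep no sequencing depth and the counting error behind a value is unknown. Between 22219 and 23041 genes were above 0 in a library. Across the 13779 genes, log2(TPM + 1) correlated at 0.987 to 0.992 between libraries of a group and at 0.875 to 0.913 between groups. A pair of libraries stood apart. Unsorted library 2 held 53025 TPM of hemoglobin transcripts against 87209 and 98149.7 in the others of its group, and more eosinophil transcripts. M sort library 1 had an Xist level of 0.22 TPM against 114 and 107 TPM in libraries 2 and 3, and its Y-linked Ddx3y level of 29.6 TPM was above their 10.8 and 6.42 TPM. Unsorted libraries held both Xist (170 to 205 TPM) and Ddx3y (11 to 16.1 TPM). G sort library 1 resembled M sort library 1 (Xist 0.99 TPM, Ddx3y 34.7 TPM). M sort library 1 thus differed in sex makeup from M sort libraries 2 and 3 and from unsorted marrow. The M sort libraries were therefore not all repeats of the same sample.

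The M sort differed from all marrow cells over a large share of the transcriptome. With limma's moderated test on log2(TPM + 1), a gene was called at a Benjamini-Hochberg adjusted p under 0.05 over all 13779 genes and a difference of at least 2-fold. By that rule 1467 genes were higher in the M sort (10.6% of those tested) and 2067 were lower (15.0%). Large differences were mostly decreases, with 143 genes called at least 8-fold lower and 10 called at least 8-fold higher. Over all genes tested the median difference was -0.16 on the log2 scale, and the middle 50% lay between -0.69 and 0.41. Hemoglobin transcripts made up 7.95% of all TPM in unsorted marrow and 0.0854% in the M sort. When they were taken out and TPM recomputed, the median moved to -0.26, and 1257 genes were called higher and 2481 lower. That changed the share of calls that were higher from 41.5% to 33.6%.

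The label was first held against monocyte genes. Ccr2, a chemokine receptor needed for monocyte exit into blood, lies on chromosome 9 (mm10, 124101950 to 124113557, plus strand). It measured 325, 308 and 336 TPM in the 3 M sort libraries and 39, 45.9 and 38.3 TPM in the 3 unsorted ones, a ratio of means of 7.86. All 3 M sort libraries were far above all unsorted ones, and the log2 difference was 2.95 ± 0.08 (SE, adjusted p = 5.03e-07, limma). Fn1, which encodes the matrix protein fibronectin, measured 1006, 1038 and 1096 TPM in the M sort and 89.2, 92.7 and 78.8 TPM in all cells. Its difference of 3.58 ± 0.07 was among the largest in the comparison (adjusted p = 4.21e-07, limma). Ly6c2, which encodes the Ly6C surface protein, stood at 1988, 1989 and 1951 TPM against 479.5, 572 and 438 TPM (2.00 ± 0.10, adjusted p = 1.07e-06, limma). The 3 M sort values of Ly6c2 differed from each other by less than those of the unsorted libraries, and the groups did not overlap. The sort markers are not named, so if Ly6C was among them, this difference would follow from the sort itself. In the G sort the same genes measured 4.57, 6.2 and 7.23 TPM (Ccr2), 24.5, 20.0 and 31.1 TPM (Fn1) and 491, 504 and 507 TPM (Ly6c2).

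**Figure D1:**
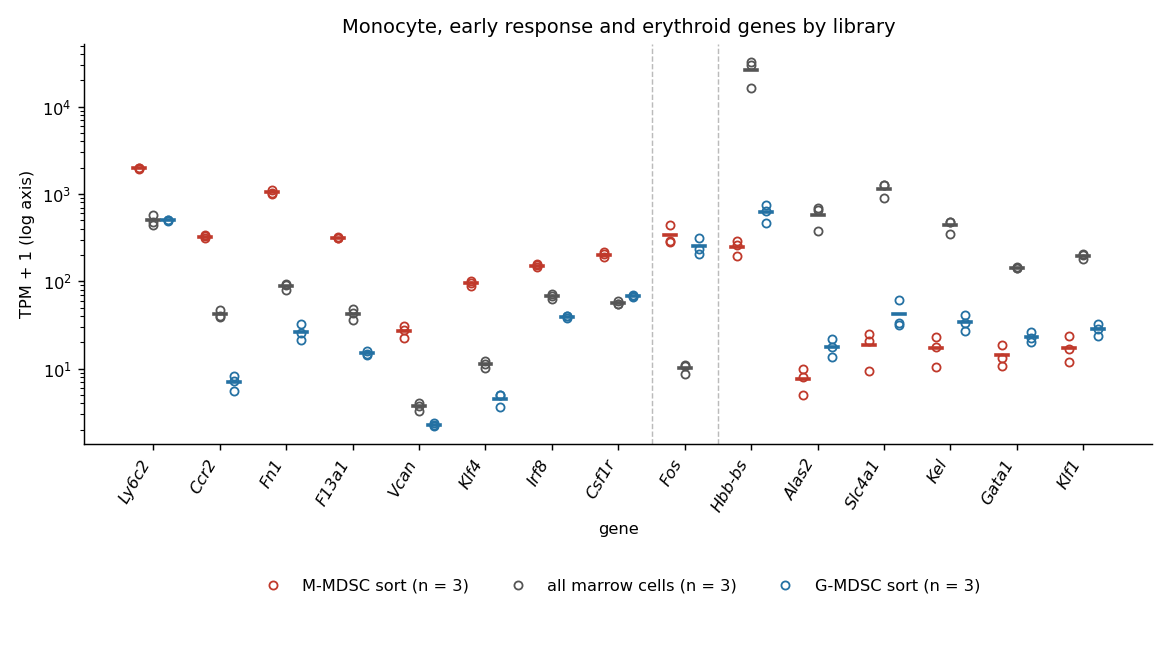
TPM + 1 of 15 genes on a log axis in the 3 libraries of the M sort (red), all marrow cells (grey) and the G sort (blue). Circles are libraries and bars are group means; dashed lines set monocyte genes, Fos and erythroid genes apart. Fn1 reached 1006 TPM or more in every M sort library and at most 92.7 TPM in unsorted ones, while Alas2 fell from at least 372 TPM to at most 8.98 TPM.

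Of 20 monocyte identity genes, chosen with earlier results of these data known, 19 were called higher in the M sort and none lower. Their median difference was 2.06 beside -0.16 for all genes tested, of which 10.6% were called higher and 15.0% lower. F13a1, the A subunit of coagulation factor XIII and a marker of classical monocytes, measured 308, 309.9 and 320.1 TPM against 42.6, 47.5 and 34.6 TPM (2.89 ± 0.10). Vcan, the proteoglycan versican, measured 21.6, 26.5 and 29.4 TPM against 3.04, 2.29 and 2.75 TPM (2.86 ± 0.13). Membrane proteins of the MS4A family showed the same separation, since Ms4a6c measured 295, 289.9 and 295 TPM against 40.1, 52.6 and 39.9 TPM. Csf1r, the receptor for the monocyte growth factor M-CSF, had a difference of 1.84 ± 0.07, and S100a4, a calcium-binding protein, one of 2.20 ± 0.11. Cx3cr1, the fractalkine receptor that is highest on non-classical monocytes, was also higher, at 32.4, 34.2 and 34.8 TPM against 8.66, 10.1 and 8.22 TPM. Summed over the list, the M sort held 8851 ± 106 TPM (SD, n = 3) and unsorted marrow 1856 ± 207 TPM, a ratio of means of 4.77. Against the G sort, in a limma fit of the 9 marrow libraries, 16 of the 20 were called higher and none lower, where 4.56% of all genes tested were called higher and 8.30% lower. That contrast shares the M sort libraries with the main one.

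Transcription factors split by lineage. Of 24 lineage factors tested, 10 were called higher in the M sort and 7 lower (median 0.61), beside 10.6% and 15.0% of all genes tested. Klf4, which drives monocyte differentiation, measured 87.4, 94.7 and 101 TPM against 10.3, 11.1 and 9.03 TPM (3.09 ± 0.09, adjusted p = 5.03e-07, limma), and only 2.65, 4.03 and 3.91 TPM in the G sort. Spi1, which encodes PU.1, was higher than in all cells (1.78 ± 0.09) but was not called against the G sort (0.19). The adjusted p of that second difference was 0.0726 with no pairing of libraries and 0.00422 with the library number as a block (limma). Irf8, which favours monocytes over neutrophils, differed by 1.17 ± 0.06 from all cells and by 1.94 from the G sort. Irf5, Cebpb and Nr4a1, the last a factor of non-classical monocytes, had differences of 2.02, 2.07 and 2.44. Nr4a1 also stands with the immediate early genes below, for which cell type and handling cannot be told apart. Among the factors that were lower, the erythroid regulators Gata1, Klf1 and Tal1 had the largest differences, at -3.36 ± 0.17, -3.55 ± 0.21 and -3.25 ± 0.12. Gata1 measured 9.82, 17.6 and 12.3 TPM in the M sort and 142, 140.2 and 144 TPM in all cells. Gata2 (-2.47), the B cell factors Pax5 (-1.73) and Ebf1 (-1.29), and Myb (-1.10), a factor of immature blood cells, made up the rest.

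Receptors for migration were higher as a group. Of 17 chemokine receptor and adhesion genes tested, 13 were called higher and 1, Pecam1, lower (median 1.57). The shares over all genes tested were 10.6% and 15.0%. Itgb7, an integrin chain of gut homing, measured 109, 112 and 117 TPM against 25.7, 29.3 and 24.7 TPM (2.05 ± 0.08), with 16.4, 16.1 and 15.9 TPM in the G sort. Some of these genes are shared with neutrophils. Cxcr2, the receptor that releases neutrophils from marrow, was higher than in all cells, at 157, 103 and 116 TPM against 42, 42.8 and 39.9 TPM (1.55 ± 0.14), yet lower than the 386, 328 and 334 TPM of the G sort (-1.49, adjusted p = 8.77e-06, limma). Itgb2 (the common β chain of leukocyte integrins) differed from all cells by 1.85 and from the G sort by -0.21. Cxcr4, which holds cells in the marrow, reached 0.93 ± 0.08, just under the 2-fold minimum. The integrin chain Itga4 had overlapping groups (0.05 ± 0.07).

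Secreted and sensing genes of phagocytes followed. Among 21 secreted, coagulation and complement genes, 18 were called higher and none lower (median 1.77). Among 24 innate sensing and Fc receptor genes, 22 were called higher and none lower (median 1.63). The shares over all genes tested were 10.6% higher and 15.0% lower. Lyz2, lysozyme of myeloid cells, measured 14015, 13266 and 13280.1 TPM against 2426, 2587 and 2067 TPM (2.52 ± 0.11). C3, the central complement component, measured 569, 545 and 587 TPM against 117, 123 and 92.8 TPM, and Chil3, a chitinase-like protein of monocytes and neutrophil precursors, 2151, 2043 and 2069 TPM against 487, 562 and 406 TPM. Neither gene had overlapping groups. Thbs1 (thrombospondin 1) varied more between libraries, at 777, 595 and 1107 TPM in the M sort and 182, 139.9 and 177 TPM in all cells, and was higher still in the G sort (1342, 1343 and 1925 TPM). Fcgr1, the high-affinity IgG receptor, had a difference of 1.94 ± 0.11, and the C-type lectin Clec4a3 one of 2.06 ± 0.07. Both were also called higher than in the G sort (3.74 and 3.52). Tlr2 and Nlrp3, sensors of bacterial products and cell damage, were higher than in all cells (2.13 and 2.13) without being called higher than in the G sort (0.08 and -0.73). Tlr4, the endotoxin receptor, had 0.89 ± 0.09 and no call. All 6 genes of the phagocyte NADPH oxidase, the enzyme of the oxidative burst, were called higher than in all cells (median 1.76) and none differed by the same rule from the G sort. Cybb, its membrane subunit, measured 919, 849 and 916 TPM against 183, 173 and 155 TPM.

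**Figure D2:**
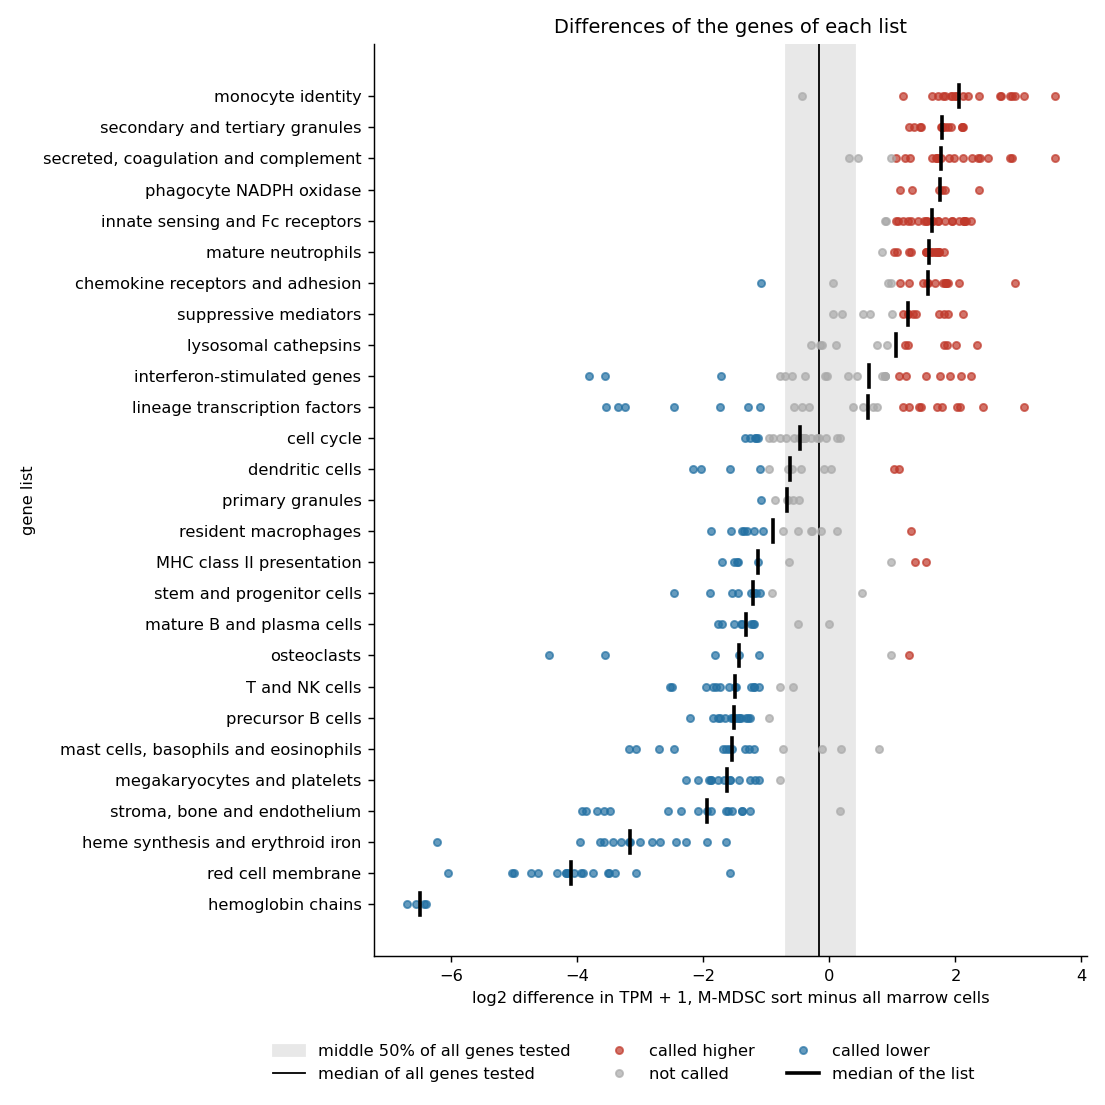
Log2 difference in TPM + 1, M sort minus all marrow cells, of every tested gene of 27 gene lists (points, coloured by call), with list medians as short bars; the line and the grey band are the median (-0.16) and middle 50% (-0.69 to 0.41) of all genes tested. Monocyte, phagocyte and secondary granule lists sit to the right, and the 3 erythroid lists at the far left.

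Lysosomal and antigen presentation genes were mixed. Of 12 lysosomal genes, 6 were called higher and none lower (median 1.06), beside 10.6% and 15.0% of all genes tested. Ctsc, the cathepsin that activates granule serine proteases, measured 334, 350.0 and 375 TPM against 71.5, 72.6 and 63.1 TPM (2.34 ± 0.07), and Psap, the saposin precursor, 2135, 2280.3 and 2325 TPM against 628, 678 and 605 TPM. Ctsb and Ctsd had differences of 0.10 ± 0.07 and -0.12 ± 0.05, neither called. Against the G sort 9 of the 12 were called higher, Ctsb included (1.48), beside 4.56% of all genes tested. Of 9 MHC class II genes tested, 5 were called lower and 2 higher, beside the same 15.0% and 10.6%. The class II β chain H2-Ab1 measured 12.2, 16.4 and 15 TPM in the M sort and 39.3, 60.7 and 50.8 TPM in all cells (-1.71 ± 0.16), and the invariant chain Cd74 had -1.14 ± 0.12. The 2 higher genes encode chains of the peptide-loading protein DM. H2-DMa measured 62.9, 73.3 and 66.4 TPM against 21.5, 24 and 22.3 TPM (1.54 ± 0.08), and H2-DMb2 had a difference of 1.36 ± 0.14. The presented chain gene H2-Ab1 thus lay lower, while H2-DMa and H2-DMb2 lay higher.

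Dendritic cell and tissue macrophage genes were mixed, and about as many went without a call as were called. Over all genes tested 10.6% were called higher and 15.0% lower, so the few called higher here are near that background. Of 12 dendritic cell genes tested, 4 were called lower, among them Siglech of plasmacytoid cells (-2.16 ± 0.12) and Zbtb46 of conventional cells (-2.04 ± 0.13), and 2 higher, Clec10a (1.10) and Batf3 (1.03). Both of these lay at the 2-fold minimum, and the number called higher was 0 without unsorted library 1. It was 1 without unsorted library 3 or M sort library 1. It was also 1 without hemoglobin genes and with a filter of 5 TPM in 3 libraries. Of 14 resident macrophage genes, 7 were called lower and 1 higher. The complement component C1qa measured 16.6, 28.4 and 17.1 TPM against 63.3, 55.5 and 65.6 TPM (-1.56 ± 0.19), and Vcam1, which marrow macrophages and stroma carry, 10.5, 20.2 and 13.7 TPM against 56.6, 50.2 and 59.4 TPM. The exception was Adgre1, which encodes F4/80, at 45.4, 49.9 and 49.6 TPM against 19.9, 21.2 and 16.7 TPM (1.29 ± 0.10).

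Mediators linked to suppression of T cells gave a partial picture. Of 22 listed genes, 14 passed the filter. Of these, 9 were called higher and none lower (median 1.24), beside 10.6% and 15.0% of all genes tested. Against the G sort 1 of the 14 was called higher and 5 lower, beside 4.56% and 8.30% of all genes tested. Arg1, Nos2, Ido1, Il10, Ptgs2 and Il6, which include the enzymes most often used to define suppressive activity, did not reach 1 TPM in 3 of the 6 libraries. S100a8 and S100a9, subunits of calprotectin and abundant in neutrophils as well as monocytes, measured 37977, 31583 and 31850.3 TPM and 56369, 47698 and 49570.2 TPM in the M sort. Unsorted marrow held 9706, 10863 and 8258 TPM of S100a8 and 15330.1, 17298 and 13379 TPM of S100a9, so the groups did not overlap for either gene. Their differences were 1.82 ± 0.16 and 1.74 ± 0.16, and neither was called against the G sort. Wfdc17, a small protease-inhibitor-like secreted protein, was higher in the M sort than in both other groups (66.6, 79.8 and 69.8 TPM, against 13.6, 17.6 and 16.2 TPM in all cells and 11.1, 9.71 and 9.71 TPM in the G sort). The cytokine gene Il1b was higher than in all cells (1.88 ± 0.18) and lower than in the G sort (-1.76). Arg2 had 0.99 ± 0.17 and no call against all cells, and was called lower than in the G sort (-2.12, adjusted p = 2.14e-06, limma). Against all cells Tgfb1 had 0.54 ± 0.07 and no call, and Cd274, which encodes PD-L1, 0.05 ± 0.15 with overlapping groups.

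Neutrophil granule genes divided by the stage at which neutrophils make them. Primary granules form first, in promyelocytes, secondary and tertiary granules later, and receptors such as CXCR2 last. The 6 primary granule genes all lay lower in the M sort than in all cells without overlap of libraries, as did 45.6% of all genes tested, and 1 of them passed the 2-fold minimum (median -0.67). Mpo, myeloperoxidase, measured 638, 869.5 and 887 TPM against 1159.9, 1518 and 1097 TPM (-0.66 ± 0.16, adjusted p = 0.00562, limma). Neutrophil elastase, Elane, measured 341, 427 and 386 TPM against 560.2, 752 and 547 TPM. Ctsg, cathepsin G, was the called one (-1.08 ± 0.14). Its difference was -0.97 without M sort library 1 and -0.94 without unsorted library 2, both under the minimum. Against the G sort all 6 were called higher, Mpo by 3.02 and Prtn3, proteinase 3, by 3.62. Monocyte precursors also make several of these proteases.

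All 14 secondary and tertiary granule genes were called higher than in all cells (median 1.79), beside 10.6% of all genes tested. Ltf, lactoferrin, measured 11188, 9699 and 10904 TPM in the M sort, 2986, 3063 and 2571 TPM in all cells and 9907, 9643 and 10746 TPM in the G sort. Ngp, neutrophilic granule protein, measured 22850.1, 20454 and 20866 TPM against 5061, 5462 and 4381 TPM (2.11 ± 0.13), and Lcn2, which encodes the iron-sequestering protein lipocalin 2, had 1.79 ± 0.09. For Ltf and Lcn2 the M sort and the G sort were not called apart (0.07 and 0.10). Camp and Ngp lay higher in the M sort than in the G sort without a call (0.86 and 0.68). Against the G sort 1 of the 14 was called higher and 2 lower (median 0.09), beside 4.56% and 8.30% of all genes tested. Summed, the 14 genes made 54460 ± 3313 TPM (SD, n = 3) in the M sort and 43242 ± 1908 TPM in the G sort, without overlap. Of 16 mature neutrophil genes, 15 were called higher than in all cells (median 1.58), while 9 were called lower than in the G sort. Ly6g, the neutrophil surface marker, measured 126, 87 and 95.2 TPM in the M sort, 44.4, 47.7 and 32.1 TPM in all cells and 295, 282 and 262 TPM in the G sort. Csf3r, the G-CSF receptor, measured 361, 282 and 317 TPM, 96.7, 101 and 86.5 TPM and 819.8, 781 and 836 TPM in the same order. Retnlg, a resistin-like secreted protein, was the member not called (0.84 ± 0.17). Summed over the list, mature neutrophil genes made 138272 ± 13050 TPM (SD, n = 3) in the M sort, 42551 ± 4739 TPM in all cells and 166180 ± 8148 TPM in the G sort. These transcripts moved with the monocyte genes in this comparison, and their part in the shared phagocyte lists above was not tested.

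**Figure D3:**
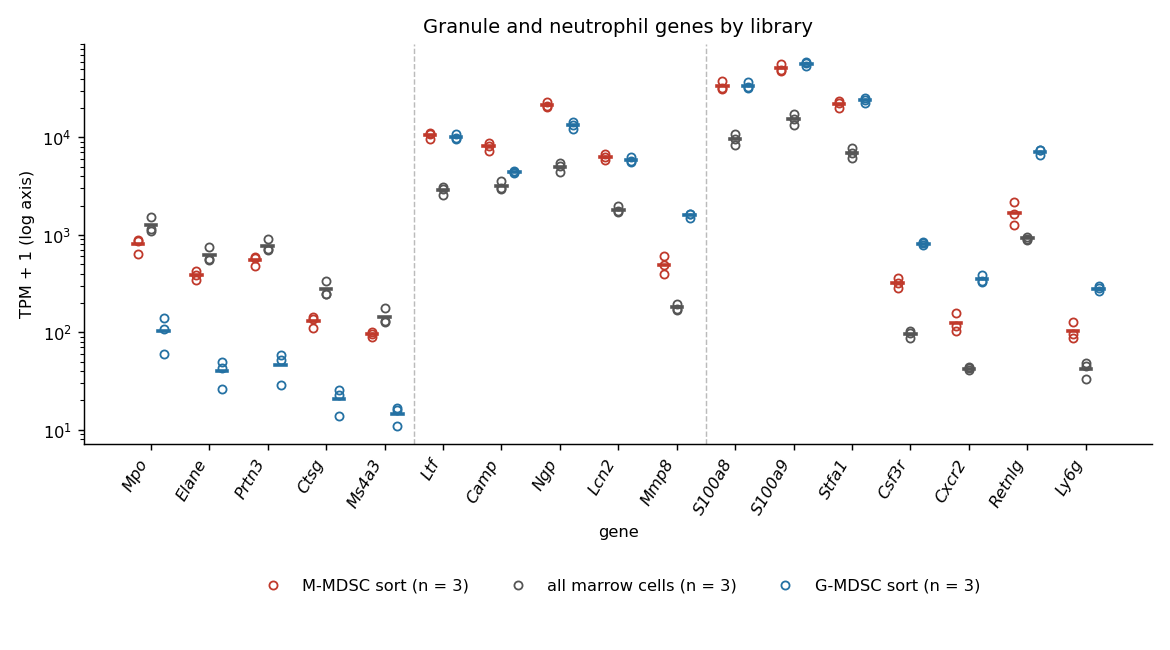
TPM + 1 of primary granule genes (left), secondary and tertiary granule genes (middle) and mature neutrophil genes (right) on a log axis, in the 3 libraries of the M sort (red), all marrow cells (grey) and the G sort (blue), with group means as bars. Mpo lay between 638 and 887 TPM in the M sort and at 139 TPM or less in the G sort, whereas Ly6g lay between 87 and 126 TPM in the M sort and at 262 TPM or more in the G sort.

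Erythroid genes had the largest differences of all. Red cell precursors build hemoglobin from globin chains and heme, and rebuild their membrane around the anion exchanger. Hbb-bs, an adult β-globin gene on chromosome 7 (mm10, 103826534 to 103828096, minus strand), measured 192, 256 and 287 TPM in the M sort and 30451, 16607 and 32401 TPM in all cells. Every M sort library was far below the lowest unsorted one, with a log2 difference of -6.71 ± 0.26 (adjusted p = 5.71e-07, limma) and a ratio of means of 108. The other 3 globin genes tested, Hbb-bt, Hba-a1 and Hba-a2, had -6.56, -6.43 and -6.40. The α-globin genes Hba-a1 and Hba-a2 are nearly identical copies, as are the β-globin pair, so the split of reads within each pair is uncertain. Residual globin was not zero, since the 8 hemoglobin chain genes measured, tested or not, summed to 618, 933 and 1009.7 TPM in the M sort libraries. Unsorted library 2, the lowest of its group, was still far above every M sort library.

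All 15 genes of heme synthesis and erythroid iron were called lower (median -3.16), as were all 18 red cell membrane genes (median -4.10). The share over all genes tested was 15.0%. Alas2, the erythroid enzyme that starts heme synthesis, measured 4.02, 6.99 and 8.98 TPM against 660.2, 372 and 687 TPM (-6.23 ± 0.29, adjusted p = 9.28e-07, limma). Fech, which inserts iron as the last step, had -3.16 ± 0.15, and Tfrc, the transferrin receptor that most dividing cells use, -3.18 ± 0.16. The anion exchanger Slc4a1 measured 8.4, 19.8 and 23.9 TPM against 1252, 889 and 1278 TPM (-6.05 ± 0.33). The blood group protein gene Kel had -4.74 ± 0.27, and Epor, the erythropoietin receptor, -3.49 ± 0.20. The smallest differences belonged to Ppox (-1.64), a heme enzyme that all cells need, and to Epb41 (-1.57), whose protein 4.1 is made in many tissues. Within the M sort, library 1 had the lowest level of Slc4a1, Kel and Alas2.

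Promoters are shown for 4 genes of these lists, 2 higher and 2 lower in the M sort, to set the letters beside the values; they were chosen because they hold matches. The letters searched were AGATAA, the core bound by GATA factors, CCACCC, bound by KLF1 and related factors, GAGGAA, the core of PU.1 sites, and TTGCGCAA, a C/EBP palindrome, each on either strand. The window runs from 250 bases before to 50 bases after the RefSeq start (build GRCm38.p6). Matches are in capitals, written as they fall on the gene's strand, so that a match on the opposite strand reads as its reverse complement, and neighbouring or overlapping matches can run together. F13a1 (chr13:37050195-37050494, minus strand) and Ly6c2 (chr15:75111922-75112221, minus strand) each hold 2 GAGGAA. Alas2 (chrX:150547167-150547466, plus strand) holds 1 AGATAA, 3 CCACCC that overlap by 1 base each, and 1 GAGGAA, and Kel (chr6:41704276-41704575, minus strand) 1 AGATAA and 1 CCACCC.
F13a1: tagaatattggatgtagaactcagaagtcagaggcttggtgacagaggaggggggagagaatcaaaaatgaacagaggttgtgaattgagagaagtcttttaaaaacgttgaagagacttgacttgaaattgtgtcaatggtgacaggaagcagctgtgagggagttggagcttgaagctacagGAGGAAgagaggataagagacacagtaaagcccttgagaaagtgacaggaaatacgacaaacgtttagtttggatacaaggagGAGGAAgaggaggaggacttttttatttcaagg
Ly6c2: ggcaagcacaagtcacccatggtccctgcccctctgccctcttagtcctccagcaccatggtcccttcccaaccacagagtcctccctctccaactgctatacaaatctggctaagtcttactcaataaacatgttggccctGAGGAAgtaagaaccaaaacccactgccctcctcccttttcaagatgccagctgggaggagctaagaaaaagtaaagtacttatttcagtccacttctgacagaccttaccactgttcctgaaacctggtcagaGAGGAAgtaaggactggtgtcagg
Alas2: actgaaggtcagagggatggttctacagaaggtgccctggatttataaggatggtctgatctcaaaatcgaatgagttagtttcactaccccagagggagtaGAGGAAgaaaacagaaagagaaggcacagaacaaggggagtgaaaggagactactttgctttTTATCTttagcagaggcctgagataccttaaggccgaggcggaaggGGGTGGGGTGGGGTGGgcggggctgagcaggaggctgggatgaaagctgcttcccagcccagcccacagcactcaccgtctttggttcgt
Kel: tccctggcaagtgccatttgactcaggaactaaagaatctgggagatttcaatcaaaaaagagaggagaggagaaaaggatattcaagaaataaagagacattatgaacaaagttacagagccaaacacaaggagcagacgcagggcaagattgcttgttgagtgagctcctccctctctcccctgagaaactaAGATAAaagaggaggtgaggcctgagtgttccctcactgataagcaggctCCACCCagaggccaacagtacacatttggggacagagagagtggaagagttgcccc

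Over whole groups of genes the shares differed less than these examples. AGATAA was found in 11.2% of all 32851 promoters, 6.85% of those of tested genes, 7.14% of those called higher and 8.98% of those called lower. In the 38 promoters of 30 erythroid list genes the share was 26.3%, and in the 19 promoters of 16 monocyte identity genes 15.8%. CCACCC was found in 31.5% of all promoters, 36.4% of those of tested genes, 42.6% of those called higher, 38.1% of those called lower, 50% of the erythroid ones and 31.6% of the monocyte ones. GAGGAA was found in 28.3% of all promoters, 27.4% of those of tested genes, 34.4% of those called higher, 26.1% of those called lower, 28.9% of the erythroid ones and 47.4% of the monocyte ones. TTGCGCAA was rare, at 0.183% of all promoters. A match is a description of the letters, and no test was made.

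Genes of the other marrow lineages were lower in the M sort to a smaller degree than erythroid genes. The counts that follow stand beside 15.0% called lower over all genes tested. Of 14 megakaryocyte and platelet genes, 13 were called lower (median -1.63), with Pf4, platelet factor 4, at 38.2, 69.2 and 63.1 TPM against 254, 227 and 339.6 TPM (-2.27 ± 0.23). Of 16 precursor B cell genes, 15 were called lower (median -1.51), and of 10 mature B and plasma cell genes, 8 (median -1.32). Vpreb1, a surrogate light chain component in developing B cells, measured 62.3, 65 and 45.7 TPM against 152, 218 and 180.2 TPM, and the recombinase gene Rag1 12.2, 13.3 and 10.1 TPM against 36.8, 32.6 and 35.2 TPM. Neither gene had overlapping groups. Precursor B cell transcripts were highest in the G sort, where they summed to 3847 ± 201 TPM (SD, n = 3) against 466 ± 74.6 TPM in the M sort and 1418 ± 132 TPM in all cells. Of 15 T and NK cell genes tested, 13 were called lower (median -1.50). Trbc2, a T cell receptor constant region, measured 1.25, 2.17 and 1.51 TPM against 12, 15.3 and 15.2 TPM, and granzyme A, Gzma, 1.31, 1.76 and 1.99 TPM against 12.9, 15.1 and 14.3 TPM.

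Of 15 mast cell, basophil and eosinophil genes tested, 11 were called lower (median -1.54), beside 15.0% of all genes tested. These genes differed in how evenly the libraries of a group behaved. The basophil proteases Mcpt8 and Prss34 measured 19.6, 23.1 and 18.5 TPM and 12.5, 18.3 and 14.5 TPM in the M sort. In all cells they measured 161, 225 and 157 TPM and 128, 181 and 127 TPM, and the differences were -3.07 ± 0.14 and -3.18 ± 0.17. The eosinophil granule gene Prg2 measured 322, 520.5 and 404 TPM against 823, 1981 and 599.8 TPM (-1.28 ± 0.39, adjusted p = 0.0172, limma), and the eosinophil peroxidase gene Epx 20.6, 39.8 and 34.9 TPM against 67.9, 209 and 53.1 TPM (-1.54 ± 0.47, adjusted p = 0.0169, limma). Unsorted library 2 set much of both means. Without it the differences were -0.78 for Prg2 and -0.95 for Epx, and without M sort library 1 the adjusted p of limma was 0.0602 and 0.0612, so that neither gene was called in either case. Ear2, an eosinophil-associated ribonuclease that monocytes also express, had 0.78 ± 0.29 and no call, but 1.17 and a call as higher without unsorted library 2.

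Stromal transcripts were at 9.76% of their unsorted level. The counts that follow stand beside 10.6% called higher and 15.0% called lower over all genes tested. Of 17 stroma, bone and endothelium genes tested, 16 were called lower (median -1.94), and the list summed to 100.3 ± 20.4 TPM (SD, n = 3) in the M sort against 1027 ± 245 TPM in all cells. The collagen gene Col1a1 measured 35.5, 14.4 and 20.0 TPM against 347, 268 and 394 TPM (-3.87 ± 0.29), and Cxcl12, the chemokine that retains cells in the marrow niche, 6.29, 3.42 and 7.62 TPM against 92.8, 33.6 and 145 TPM (-3.58 ± 0.48). The bone factor gene Runx2 was the exception, with overlapping groups (0.17 ± 0.12). Osteoclasts arise from monocyte precursors, and of 7 osteoclast genes tested, 5 were called lower and 1 higher. The 1 called higher is near the share over all genes tested. Ctsk, the collagen-degrading cathepsin K, measured 1.46, 3.46 and 4 TPM against 75.8, 67.3 and 109 TPM (-4.45 ± 0.28), and Acp5, tartrate-resistant phosphatase, 14.8, 23.2 and 19.5 TPM against 218, 233 and 249.9 TPM. Mmp9, the higher one, is also a neutrophil granule gene (1.26 ± 0.12). Of 10 stem and progenitor genes tested, 8 were called lower (median -1.22), among them Kit (-1.20), the stem cell factor receptor, and Cd34 (-1.17). Hlf, a gene for a transcription factor of stem cells, had a positive difference of 0.51 ± 0.11 without a call.

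**Figure D4:**
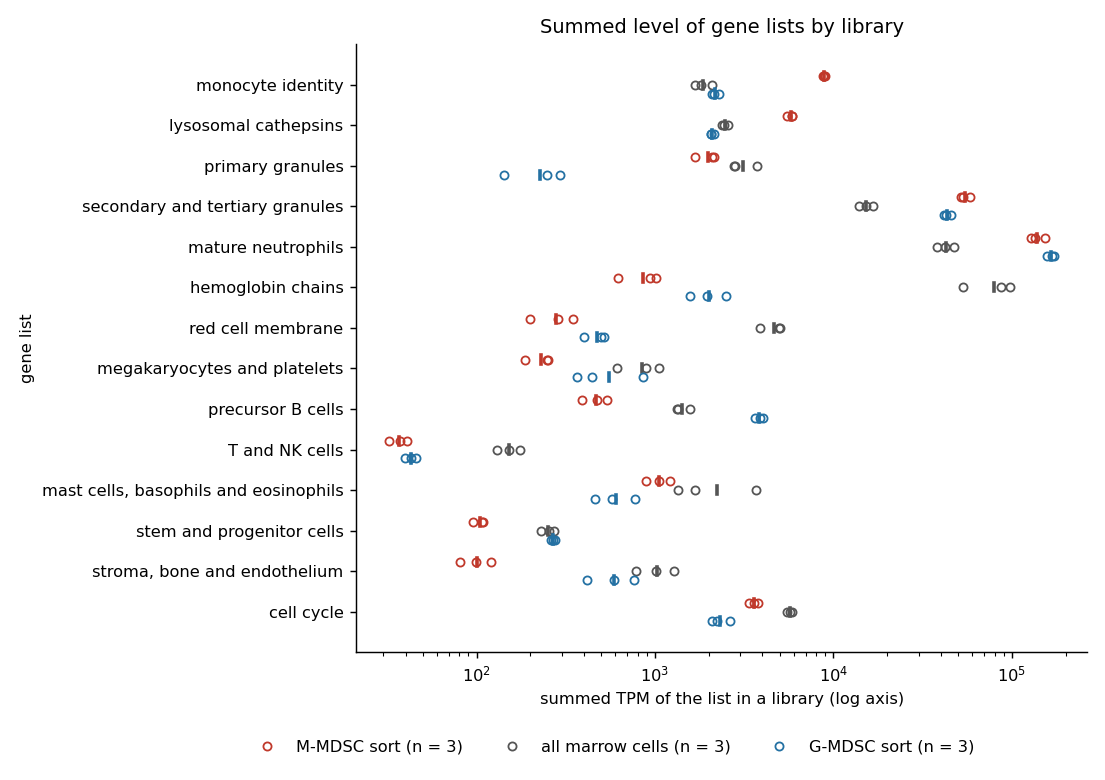
Summed TPM of 14 gene lists on a log axis in each library of the M sort (red), all marrow cells (grey) and the G sort (blue), with group means as bars. Hemoglobin transcripts fell from at least 53025 TPM in unsorted libraries to at most 1010 TPM in M sort libraries, and monocyte identity transcripts rose from at most 2080 TPM to at least 8747 TPM.

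Few cell cycle genes passed the 2-fold minimum, although most lay lower. Of 22, 5 were called lower, a share not far from the 15.0% of all genes tested, and none was called higher (median -0.47). A further 14 had an adjusted p under 0.05 (limma) without reaching 2-fold. Of the 22, 20 had a negative difference, and 18 lay lower without overlap of libraries, as did 45.6% of all genes tested. The 5 called genes act in DNA replication or nucleotide supply (Mcm2, Mcm3, Mcm6, Pcna and Rrm2). Pcna, the sliding clamp of DNA polymerase, measured 273, 313 and 287 TPM against 696, 714 and 676 TPM (-1.26 ± 0.07). No mitotic gene of the list was called, but their differences varied. Birc5 had -0.96 ± 0.08, near the minimum, and -1.08 with a call when hemoglobin genes were left out. Ccnb1 had -0.56 ± 0.07, Mki67 -0.44 ± 0.07 and Top2a -0.19 ± 0.08. Aurkb, a kinase of chromosome segregation, had 0.12 ± 0.07. Against the G sort Aurkb was called higher (1.17).

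Among 22 interferon-stimulated genes tested, 7 were called higher and 3 lower (median 0.63), beside 10.6% and 15.0% of all genes tested, so the number lower is near the background. Mx1 measured 18.3, 15.9 and 19.8 TPM against 2.81, 4.58 and 2.03 TPM (2.24 ± 0.21). Ifitm3, which blocks viral entry, measured 681, 665 and 718 TPM against 147, 188 and 151 TPM (2.09 ± 0.10). In contrast Rsad2, which encodes viperin, measured 2.44, 2.86 and 2.5 TPM against 62, 29.9 and 65.1 TPM (-3.81 ± 0.26), and Isg20, an exonuclease, 12.3, 15.2 and 14.5 TPM against 199, 141 and 192 TPM (-3.56 ± 0.14). Isg15, the ubiquitin-like modifier, was the other lower gene (-1.72 ± 0.10). Unsorted library 2, which held the least hemoglobin of its group, also had the lowest Rsad2, Isg20 and Isg15 of its group. The part of erythroid transcripts in these differences was not tested.

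The largest rise among the 13779 genes tested was that of Fos, an immediate early gene that cells switch on within minutes of a stimulus. It measured 280.0, 287 and 439 TPM in the M sort and 9.69, 10.1 and 7.55 TPM in all cells (5.03 ± 0.18, adjusted p = 5.57e-07, limma). In the G sort it was also high, at 203, 233 and 316 TPM. The difference between the 2 sorts was under the 2-fold minimum (0.41 ± 0.20). Its adjusted p was 0.107 with no pairing of libraries and 0.00104 with the library number as a block (limma). The M sort was above the G sort in 3 of 3 equally numbered libraries. A list of 12 immediate early genes was drawn up after the value of Fos had been seen. Of these, 9 were called higher than in all cells and none lower, beside 10.6% and 15.0% of all genes tested. Jun, a partner of Fos, had 2.54 ± 0.13, Fosb 2.55 ± 0.11, and Zfp36, which degrades cytokine messages, 2.49 ± 0.10. Egr1 was not called (0.69 ± 0.33). M sort library 3 had the highest Fos, Nr4a1, Dusp1 and Egr1 of its group, with Dusp1, a phosphatase of MAP kinases, at 51.6, 48.1 and 130.3 TPM against 16.4, 15.6 and 18.8 TPM. The labels do not say whether unsorted marrow passed through the sorter, so for these genes cell type and handling cannot be told apart.

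Outside the lists, 1 of 2 overlapping entries of the small nucleolar RNA Snord80 came second to Fos. That rank is among called genes without overlap at a group mean of at least 20 TPM, with provisional symbols and pseudogenes left out. The split of reads between the 2 entries is uncertain. The ranked entry measured 53.7, 34.8 and 37 TPM in the M sort. It was listed at 0 in unsorted libraries 1 and 3, at 4.04 TPM in library 2, and at 0, 0 and 130.29 TPM in the G sort. Among protein-coding genes, Arhgef37, a guanine nucleotide exchange factor, measured 42, 44.7 and 43.5 TPM in the M sort, 2.81, 3.71 and 3.34 TPM in all cells and 0.6, 0.89 and 0.8 TPM in the G sort (3.38 ± 0.10 against all cells). Ptpro, a receptor tyrosine phosphatase, measured 51.4, 51.7 and 56.8 TPM against 6.2, 8.33 and 7.32 TPM, and Olfm1, a secreted olfactomedin, 31.7, 32.7 and 36.6 TPM against 3.77, 4.26 and 5.09 TPM. Both were called higher than in the G sort as well (4.21 and 3.95). At the other end, Ypel4 (-5.01), Tmcc2 (-4.98) and Samd11 (-4.89) stood among the erythroid genes. Samd11 measured 0.92, 1.04 and 1.19 TPM in the M sort and 67.3, 47.7 and 65.7 TPM in all cells, without overlap.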

How the data were processed

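The deposited table holds TPM per gene and library, estimated by the authors with RSEM after alignment with STAR 2.6.1c to mm10, per the submitters' processing notes; the sources used here give neither the RSEM version nor the annotation. Libraries were stranded mRNA, single reads of 75 bases, per the labels' protocols. TPM keeps no depth. Of 26 symbols stored as dates, all were restored from their gene IDs.

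Genes with at least 1 TPM in at least 3 of the 6 libraries were tested on log2(TPM + 1), a scale that understates differences of low genes, with limma 3.58.1 in R 4.3.3 (variance trend, two-sided, Benjamini-Hochberg). Values are log2 differences ± SE. The M sort was also set against the G sort in a fit of the 9 marrow libraries, with no pairing of libraries. The procedure was tested on simulated data. The members and the 29 gene lists were chosen with earlier results of these data known, and lists are described by counts and medians without a test.

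Named genes are the 4 markers Ccr2, Fn1, Ly6c2 and Hbb-bs, the 12 largest and 12 smallest called differences without overlap at a group mean of at least 20 TPM, list members, and the 10 most abundant genes of each group; the text takes a subset, chosen with values seen. Itgam, Azu1 and Ahsp were not analysed here, and some list members are counted but not reported here by name. Alternatives were another pseudocount, other filters, median-ratio rescaling, TPM without hemoglobin genes, no fold minimum, larger fits, a replicate block, leaving out each library, and, added after seeing the data, unsorted library 2 and M sort library 1 left out together. Coordinates are GENCODE M21 (GRCm38) and promoters RefSeq.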

Additional observations from a re-analysis of the deposited data

How the results depend on the processing

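Without a fold minimum 4202 genes were called higher and 6029 lower, and this was the one setting that moved either count by over 1.5 times. The other planned settings gave 1257 to 1749 higher and 1514 to 2707 lower. Leaving out each library in turn gave 1422 to 1524 higher and 1914 to 2241 lower, and leaving out unsorted library 2 and M sort library 1 together 1519 and 1941. Equally numbered libraries of the M sort and unsorted marrow were not paired by their deviations (correlations 0.0184, 0.0387 and 0.0386), although every library correlated best with its own number, and the replicate block gave 1474 higher and 2078 lower. For the M and G sorts the correlations were 0.11, 0.18 and 0.0972. Unequal numbers reached at most 0.0255, and the meaning of a number is not labelled. Equal numbers may therefore be paired, and the M against G values above leave this out unless a block is named. A replicate block there, added after seeing the data, gave 641 higher and 1150 lower in place of 629 and 1143, and changed the call of none of the genes checked. With this block the SE fell from 1.91 to 0.11 for Xist and from 0.53 to 0.07 for Ddx3y. For some genes it rose, as for Pf4 (0.29 to 0.35). The adjusted p of limma moved from 0.107 to 0.00104 for Fos and from 0.0726 to 0.00422 for Spi1, both under the fold minimum.

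Of 165 genes checked, 128 kept direction and side of the threshold in every setting, 139 when the fold minimum is left aside. The sign changed for 7, none of them called. Cd274 was at -0.04 without hemoglobin genes and ranged from -0.10 to 0.15 as libraries were left out, Itga4 at -0.07 without hemoglobin genes and -0.01 without M sort library 3, and Ctsb at -0.02 without hemoglobin genes. Jchain was at 0.04 after rescaling, 0.20 and 0.12 without M sort libraries 2 and 3, and 0.09 without unsorted library 2, with a low of -0.33. Ear1 was at 0.41 without unsorted library 2, with a low of -0.48 when others were left out, and at 0.49 without M sort library 1 as well. Ddx3y was at 0.02 after rescaling, 0.09 and 0.42 without M sort libraries 2 and 3, and 0.10 without unsorted library 3, with a low of -0.60; Eif2s3y was at 0.09, 0.37 and 0.02 without the same 3 libraries, with a low of -0.65. Calls were lost in some settings for 10 genes: Ctsg, Epx and Prg2 (above), Batf3, Clec10a, Cd74, Kit, Rac2, and, only in the fit of all 39 libraries, Camp (adjusted p = 0.12) and Stfa1 (adjusted p = 0.111, limma). A further 20 genes without a call gained one in some setting, among them Arg2, Birc5, Clec1b, Dntt, Ear2, Egr1, Nfatc1, Retnlg and Xist with the fold minimum in place. The cause was not tested. Depth is unknown, so low values carry an unstated counting error.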
